A study of Sus scrofa with 8 samples.

Results

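The activin, myostatin and follistatin axis was followed as 10 genes in the right ventricular free wall of pigs. The 10 genes were chosen on the banded-against-control differences of these same 8 animals, which were already known when the list was drawn up. Every banded-against-control value of a member is therefore a description, and its adjusted p is no independent evidence. All 10 names matched 1 gene model each in the authors' deposited table and in the count table of 31908 gene models. All 10 were among the 13697 models that passed the filter on low counts. The axis comprises the antagonists FSTL3 and FST with the related FSTL1, the ligand genes INHBA, INHBB, MSTN and GDF11, and the receptors ACVR2A, ACVR2B and ACVR1B.

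Right ventricles came from 4 pigs with a constricting band on the main pulmonary artery, which makes the right ventricle eject against a higher pressure, and from 4 control pigs, all of them Yorkshire Cross. The banded pigs were castrated males operated at 4.5 ± 0.6 weeks of age and 6.4 ± 1.3 kg, with the band tightened to a right ventricular systolic pressure of about 30 to 40 mmHg. The control pigs, of similar age and weight, had the treatment "None" and were housed for 8 weeks. Neither their sex nor a sham operation is given in the labels. Total RNA of bulk tissue was sequenced, 1 library per animal. The libraries held 31400659 to 34169120 counts in banded pigs and 31033679 to 34183338 in controls. Batch, litter, sex and surgery cannot be told apart from banding in this design. The values read from the labels hold no age at tissue collection and no time from banding to it. Differences in these cannot be told apart from banding either.

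Activins and inhibins are dimers of the inhibin beta and alpha subunits. Activins, myostatin and GDF11 signal through a type II receptor (ACVR2A or ACVR2B), which recruits a type I receptor such as ACVR1B and leads to phosphorylation of SMAD2 and SMAD3. Follistatin and FSTL3 are secreted glycoproteins that wrap around these ligands and keep them from their receptors. In muscle the pathway is known for restraining growth and promoting wasting, and in the heart its members have been studied in hypertrophy, fibrosis and heart failure.

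Of the 10 members, 3 passed the threshold of the fit across all genes (edgeR quasi-likelihood test, adjusted p under 0.05), all 3 higher in banded pigs: FSTL3, INHBA and FSTL1. The same fit called 6.97% of all 13697 genes, with 3.47% of the 13697 higher and 3.5% lower in banded pigs. Nothing is read from these shares, because the members were chosen on the same contrast. The 3 called members were also the only 3 whose banded and control values did not overlap, a separation seen in 15.9% of all tested genes. The median log2 fold change of the 10 members was 0.01, against 0.02 over all tested genes. In the other 7 genes the groups overlapped. In bulk tissue, fewer cells of a type and less RNA per cell cannot be told apart. The authors' deposited table, which gives control over banded, has log2 ratios of -2.43 ± 0.15 for FSTL3, -1.83 ± 0.41 for INHBA and -0.67 ± 0.14 for FSTL1 (SE). That table does not name its samples, and its log2 values lie on those of the present fit without banded 3, with a median absolute difference of 0.000327 over 13077 genes and of at most 0.00568 for any member. Against the fit with all 8 libraries the median difference is 0.0810 over 12891 genes. Its values are therefore set here beside the fit without banded 3, in which FSTL3 was at a log2 fold change of 2.43, INHBA at 1.83 (edgeR adjusted p = 0.0225) and FSTL1 at 0.67 (0.0242), and 938 genes were called. Why the table lies on that fit was not tested.

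**Figure D1:**
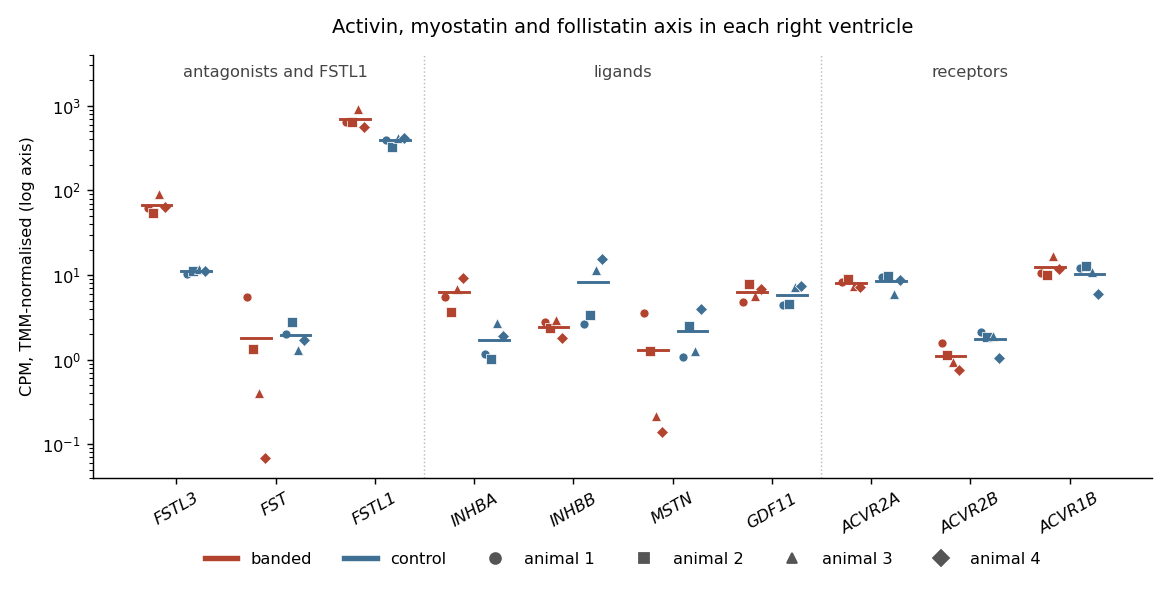
Expression of the 10 members in each animal in CPM (log axis), banded pigs to the left of controls for each gene, with a horizontal bar at the group mean of 4 animals and a marker shape for each animal number within its group. FSTL3, INHBA and FSTL1 show no overlap between the groups, INHBB splits the controls into a low and a high pair, and FST and MSTN spread widely in banded pigs.

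FSTL3, a follistatin-family protein that binds activins and myostatin (ENSSSCG00000037102, minus strand of chromosome 2, 77656658 to 77662613, build Sscrofa11.1), had the largest difference of the axis. In CPM, which are read-pair counts scaled to the TMM-normalised library size, it stood at 62.5, 53.7, 91.9 and 63.2 CPM in banded pigs 1 to 4 and at 10.3, 11.2, 11.9 and 11.06 CPM in controls 1 to 4. The lowest banded value lay far above the highest control value, and the controls were within a narrow range. The means were 67.8 ± 16.6 CPM in banded pigs and 11.12 ± 0.629 CPM in controls (SD, n = 4 each), a log2 fold change of 2.61 ± 0.17 (SE) or 6.10-fold (edgeR adjusted p = 2.61e-05). By p-value FSTL3 stood at rank 3 of the 13697 tested genes, and by size of rise at rank 81. Its log2 fold change was 2.43 without banded 3, the animal with the highest value, and 2.57 to 2.71 with any other single library left out.

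FST, which encodes follistatin itself (ENSSSCG00000016892, chromosome 16, 32805874 to 32811421), did not follow FSTL3. It was at 5.49, 1.34, 0.402 and 0.0695 CPM in banded pigs 1 to 4, the last of these resting on 2 counts, against 2.02, 2.81, 1.29 and 1.72 CPM in controls 1 to 4. Banded 1 exceeded every control while banded 3 and banded 4 fell below every control. The group means were 1.83 CPM in banded pigs, over a range of 0.0695 to 5.49 CPM, and 1.96 ± 0.642 CPM in controls (SD, n = 4). The log2 fold change was -0.10 ± 0.93 (SE, adjusted p = 0.962). It was -1.68 without banded 1 (adjusted p = 0.197) and above 0 without banded 2, banded 3, banded 4 or control 2. Per exon length, FSTL3 made up 97.0% ± 4.00 of the summed FSTL3 and FST transcripts in banded pigs and 83.9% ± 4.62 in controls (SD, n = 4 each).

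FSTL1 shares a follistatin-like domain but is best known as a secreted glycoprotein of stromal cells (ENSSSCG00000039426, chromosome 13, 139847438 to 139901960). It was the most abundant member, at 652, 646, 907 and 565 CPM in banded pigs 1 to 4 and 396, 327, 421 and 418 CPM in controls 1 to 4. Every banded library lay above every control. The means of 692 ± 148 CPM in banded pigs and 390.2 ± 43.7 CPM in controls (SD, n = 4 each) gave a log2 fold change of 0.83 ± 0.17 (SE) and an edgeR adjusted p of 0.0174. The call ended without control 1 (adjusted p = 0.0592) or control 2 (0.0684). Summed fibroblast markers overlapped between the groups, as given below, and the part of fibroblasts in the FSTL1 values was not tested.

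Among the ligand genes, INHBA, which encodes the beta A subunit of activin A (ENSSSCG00000035077, chromosome 18, 52889684 to 52900967), was higher in banded pigs. It was at 5.43, 3.61, 6.92 and 9.14 CPM in banded pigs 1 to 4 and at 1.17, 1.02, 2.70 and 1.92 CPM in controls 1 to 4. The groups did not overlap, although the gap between banded 2 and control 3 was small. With means of 6.28 ± 2.34 CPM in banded pigs and 1.70 ± 0.772 CPM in controls (SD, n = 4 each), the log2 fold change was 1.88 ± 0.37 (SE) and the edgeR adjusted p was 0.0134. Without control 1 the adjusted p was 0.0505.

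INHBB, the beta B subunit of activin B (ENSSSCG00000038610, minus strand of chromosome 15, 30999520 to 31004405), had the lowest fold change of the 10 members and did not pass the threshold. Banded pigs 1 to 4 were close together at 2.78, 2.36, 2.91 and 1.81 CPM, while controls 1 and 2 were at 2.64 and 3.34 CPM and controls 3 and 4 at 11.4 and 15.3 CPM. The difference between the group means, 2.46 ± 0.495 CPM in banded pigs and 8.16 ± 6.19 CPM in controls (SD, n = 4 each), thus rests on controls 3 and 4. The log2 fold change was -1.72 ± 0.54 (SE) with an edgeR adjusted p of 0.0915. DESeq2 called it lower (adjusted p = 0.00513), as did edgeR without control 1 (0.0438), whereas limma-voom with quality weights gave 0.381. Without banded 3 the log2 fold change was -1.81 (edgeR adjusted p = 0.166), and the authors' deposited table, whose values lie on that fit, gives an adjusted p of 0.0806.

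**Figure D2:**
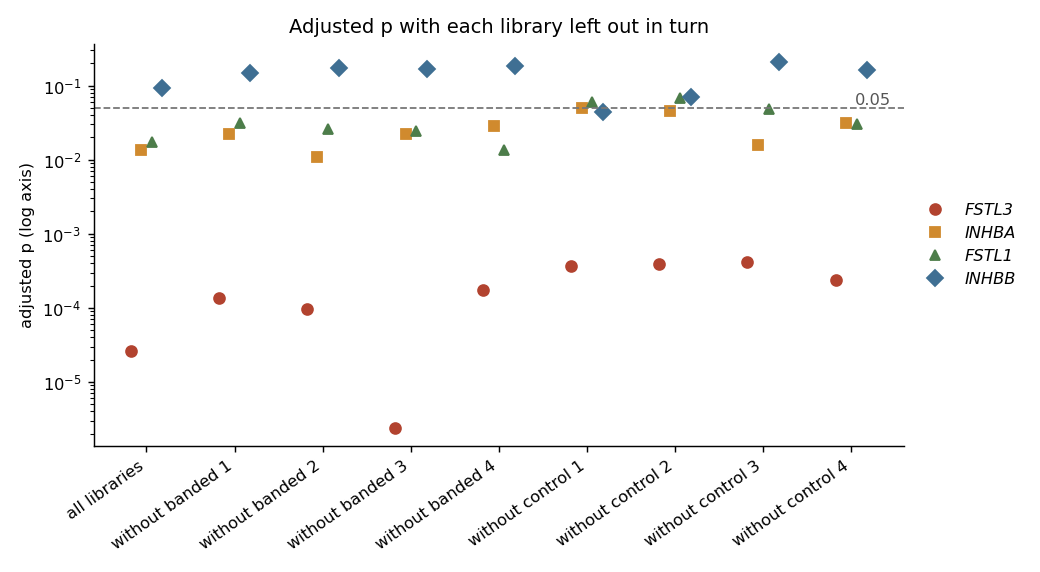
Adjusted p of the edgeR quasi-likelihood test (log axis) for FSTL3, INHBA, FSTL1 and INHBB with all 8 libraries and with each library left out in turn, with a dashed line at 0.05. FSTL3 stays at or below 0.000412 throughout, FSTL1 crosses the line without control 1 or control 2, INHBA reaches 0.0505 without control 1, and INHBB passes only without control 1.

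MSTN encodes myostatin, a restraint on muscle growth that is made mainly by skeletal muscle (ENSSSCG00000016047, minus strand of chromosome 15, 94620269 to 94628546). Its transcript was rare, at 3.60, 1.28, 0.216 and 0.139 CPM in banded pigs 1 to 4, of which banded 3 and 4 rest on 7 and 4 counts, and at 1.09, 2.47, 1.26 and 4.00 CPM in controls 1 to 4. As with FST, banded 3 and banded 4 lay below every control and banded 1 did not. The log2 fold change was -0.74 ± 0.88 (SE, adjusted p = 0.664), and it was -1.98 without banded 1 (adjusted p = 0.164) and -0.29 without control 4 (0.888). The markers of skeletal muscle that matched a gene model were scarce in all libraries. Their sum over 8 genes was 1.46 to 4.92 CPM in banded pigs and 2.64 to 4.86 CPM in controls. MYH1, MYH2 and MYH4 were also listed but matched 0 gene models, so this scarcity leaves them out. ATP2A1 and PVALB were under 0.1 CPM in every library. Of the 4 skeletal muscle markers tested, ACTN3 was called lower, at 0.0348 to 0.189 CPM in banded pigs and 0.609 to 0.991 CPM in controls. The other 3 were not called and had positive log2 fold changes, with TNNC2 at 0.348 to 0.790 CPM in banded pigs and 0.0281 to 0.297 CPM in controls (log2 2.06), MYBPC2 at 0.34 and TNNI2 at 0.27.

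GDF11, a close relative of myostatin (ENSSSCG00000000363, chromosome 5, 21191142 to 21201818), had overlapping values in the 2 groups. It was at 4.77, 7.85, 5.63 and 6.88 CPM in banded pigs 1 to 4 and at 4.43, 4.55, 7.14 and 7.36 CPM in controls 1 to 4 (log2 fold change 0.10 ± 0.24 SE, adjusted p = 0.850).

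Set per exon length, as CPM per kilobase (FPKM), the 4 ligand genes summed to 5.92, 4.95, 6.20 and 7.20 FPKM in banded pigs 1 to 4 and to 2.95, 3.49, 8.00 and 9.86 FPKM in controls 1 to 4. The mean sums were nearly the same, 6.07 ± 0.928 FPKM in banded pigs and 6.07 ± 3.39 FPKM in controls (SD, n = 4 each), but their make-up was not. INHBA took 39.0% to 67.8% of the ligand sum in banded pigs and 10.4% to 21.2% in controls. INHBB took 10.3% to 19.6% in banded pigs and 36.8% to 63.8% in controls. These shares are parts of 1 sum, so more INHBA by itself lowers the share of INHBB. The levels of INHBB overlapped, at 0.743 to 1.19 FPKM in banded pigs and 1.09 and 1.37 FPKM in controls 1 and 2. The ratio of summed FSTL3 and FST to summed ligand transcripts was 6.37, 6.13, 8.19 and 4.84 in banded pigs 1 to 4, against 2.34, 2.26, 0.912 and 0.723 in controls 1 to 4. The controls fell into the same 2 pairs as for INHBB. This is no separate observation, because INHBB is part of the ligand sum. Summed FSTL3 and FST stayed at 6.90 to 7.87 FPKM in controls. These sums and ratios are built from members picked on this contrast and carry no test, and transcript ratios do not measure protein.

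**Figure D3:**
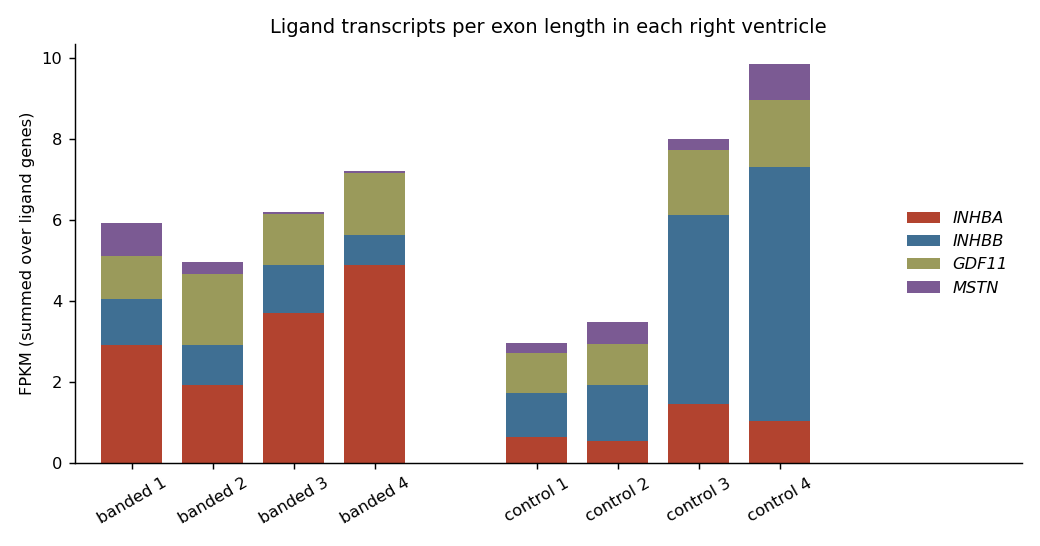
Levels of the 4 ligand genes per exon length (FPKM, stacked) in each animal, banded pigs to the left of controls. The height of the stack runs from 4.95 to 7.20 FPKM in banded pigs and from 2.95 to 9.86 FPKM in controls, with INHBA the largest part in every banded pig and INHBB the largest part in every control.

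The receptor genes were present at low levels, and 0 of 3 were called by edgeR, by DESeq2 or by limma-voom, with 0 at an unadjusted p under 0.05 in edgeR. As edgeR called 6.97% of all tested genes, 0 calls among 3 is near that share. Of the 13697 tested genes DESeq2 called 1710, limma-voom called 1350, and 3262 had an unadjusted p under 0.05 in edgeR. Counts of 0 among 3 do not show that the receptor genes were unchanged. ACVR1B, the type I receptor for activin (ENSSSCG00000000233, chromosome 5, 17314290 to 17350722), was at 10.1 to 16.9 CPM in banded pigs and 5.91 to 12.8 CPM in controls (log2 fold change 0.26 ± 0.25 SE, adjusted p = 0.574). The type II receptor ACVR2A (ENSSSCG00000015669, minus strand of chromosome 15, 4173805 to 4259706) was at 7.26 to 8.99 CPM in banded pigs and 6.01 to 9.80 CPM in controls (-0.09 ± 0.19, adjusted p = 0.828). The other type II receptor, ACVR2B (ENSSSCG00000011257, chromosome 13, 23237699 to 23267382), was at 1.58, 1.14, 0.927 and 0.765 CPM in banded pigs 1 to 4 and at 2.14, 1.83, 1.91 and 1.06 CPM in controls 1 to 4 (-0.65 ± 0.37, adjusted p = 0.320). All 4 banded values of ACVR2B lay below controls 1 to 3, and those of banded 1 and banded 2 lay above control 4, so the ranges overlapped.

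Ordered by FPKM, FSTL1 (219 ± 46.8 in banded pigs, 123 ± 13.8 in controls) stood first and FSTL3 (37.3 ± 9.15 in banded pigs, 6.12 ± 0.346 in controls) second in both groups (SD, n = 4 each). In banded pigs FSTL3 was separated from the third gene, INHBA (3.35 ± 1.25 FPKM), with the lowest FSTL3 value at 29.5 FPKM and the highest INHBA value at 4.88 FPKM. In controls the third gene was INHBB (3.36 ± 2.55 FPKM), whose highest value of 6.29 FPKM lay above the lowest FSTL3 value of 5.68 FPKM. From the third place down, every pair of neighbours in the order overlapped in both groups, and ACVR2B was last at 0.171 ± 0.0548 FPKM in banded pigs and 0.270 ± 0.0732 FPKM in controls. INHBA stood eighth in controls (0.908 ± 0.412 FPKM).

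How the members varied among animals of the same group was not used to choose them. Deviations of log2 CPM from the group mean were compared for the 45 pairs of members over 8 libraries, with an exact two-sided permutation test of pairings within groups, whose smallest possible p is 0.00174. INHBA and ACVR2A had opposite deviations (Pearson r = -0.886, exact p = 0.00174, Spearman rho = -0.905, exact p = 0.00347), with r = -0.979 within banded pigs and -0.916 within controls, and r = -0.929 without the 2 animals farthest from the median of INHBA. After Benjamini-Hochberg adjustment over the 45 pairs the permutation p of this pair was 0.0781 (0.156 for rho), above 0.05. Its exact p for r was already the smallest possible, so 1 pair alone could not pass after adjustment over 45 pairs. That the pair did not pass therefore decides nothing. FST and MSTN had deviations of like sign (r = 0.894, exact p = 0.0295, adjusted 0.521, rho = 0.810, exact p = 0.156, adjusted 0.625), with r = 0.971 within banded pigs but 0.250 within controls, and r = 0.700 without banded 1 and banded 4. In all, 4 of the 45 pairs had an exact p under 0.05 for Pearson's r and 0 had an adjusted p under 0.05. FSTL3 was in none of the 4.

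**Figure D4:**
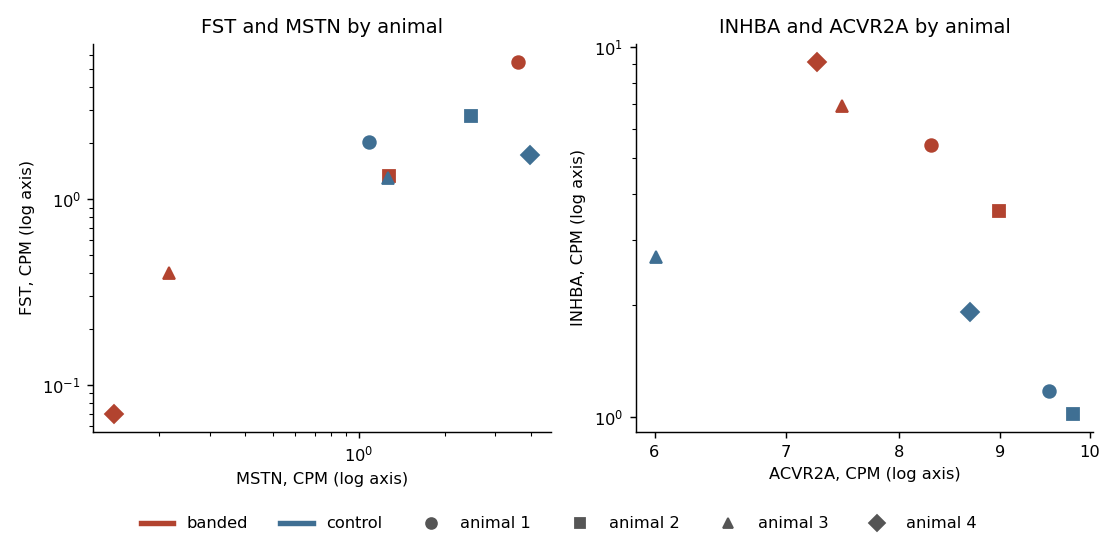
FST (vertical axis) against MSTN on the left and INHBA (vertical axis) against ACVR2A on the right in each animal, in CPM on log axes, with the group given by colour and the animal number within its group by marker shape. In banded pigs the animal with the most FST also has the most MSTN and the animal with the least has the least, and within each group the animals with more INHBA have less ACVR2A.

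The genes most like FSTL3 in these deviations, among 11320 tested genes with a symbol and a mean of at least 1 CPM, were SARS1 (r = 0.980), ZNF326 (0.978), LARP4 (0.977), GMEB1 (0.972) and PRKAG2 (0.970) over 8 libraries. All 5 were highest in banded 3, as FSTL3 was, and none of the 5 passed the threshold between the groups. Banded 3 was also the library farthest from the rest of its group. Chi-square over degrees of freedom was 162 to 175 for its pairs and 49.7 to 84.2 among the other banded pigs. How far these values of r rest on that 1 library was not tested. SARS1, the cytosolic seryl-tRNA synthetase, was at 85.3 ± 31.5 CPM in banded pigs and 72.4 ± 3.55 CPM in controls (SD, n = 4 each). For MSTN they were POC5 (r = 0.989), SLC27A6 (0.982), DNTT (0.967), PID1 (0.965) and PRDM15 (0.958), and FST stood at place 41. PID1 was lower in banded pigs (42.4 ± 10.8 CPM, against 72.6 ± 8.18 CPM in controls, log2 fold change -0.78 ± 0.18 SE, edgeR adjusted p = 0.0255), and POC5, a centriole gene, was higher (8.54 ± 2.36 CPM, against 4.37 ± 0.504 CPM in controls, edgeR adjusted p = 0.0247). These values of r head a ranking of 11320 genes over 8 libraries and are given with no test.

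The rest of the pathway was read from a list of 44 genes in 7 roles, of which 42 matched a gene model and 33 were tested. In the edgeR fit 6 were higher and 1 lower in banded pigs, in a background of 3.47% of tested genes higher and 3.5% lower. Nothing is read from these shares, because this list too was drawn up with earlier results of these data known. The median log2 fold change of the 33 was -0.08, against 0.02 over all tested genes. The 7 calls became 4 without control 3.

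**Figure D5:**
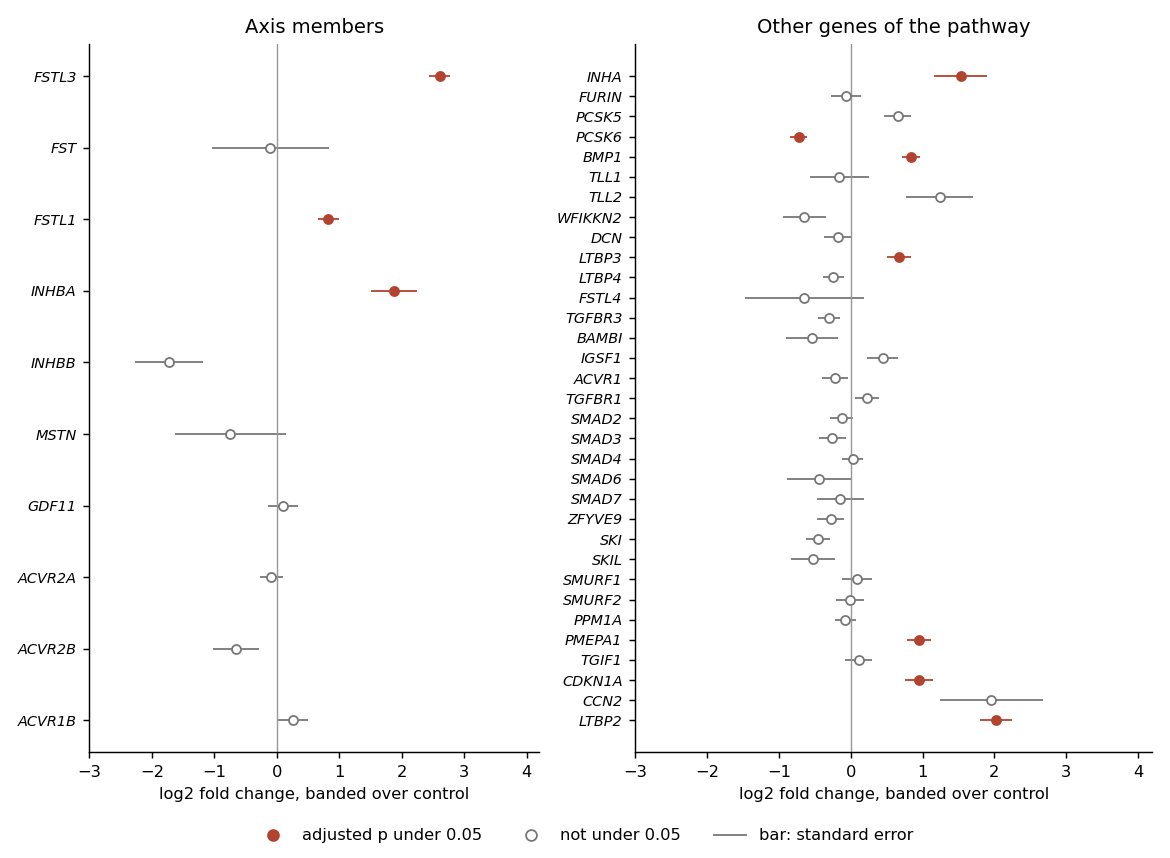
Log2 fold changes of banded over control, with standard errors, for the 10 members (left) and the 33 tested genes of the wider pathway (right), 4 animals per group. Filled points have an edgeR adjusted p under 0.05, which are 3 members and 7 pathway genes, and none of the 11 SMAD transducers and brakes is filled.

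INHA, the inhibin alpha subunit, which forms inhibins with the beta subunits, was the only other ligand gene of the family with enough counts to test. It was at 34.6, 31.6, 37.3 and 55.3 CPM in banded pigs 1 to 4 and at 7.28, 13.1, 9.81 and 24.8 CPM in controls 1 to 4, without overlap (log2 fold change 1.53 ± 0.37 SE, edgeR adjusted p = 0.0400). The call ended with any single library left out except control 4 (adjusted p 0.0628 to 0.116), and with no filter on low counts (0.0967). The span of OBSL1, on the other strand of chromosome 15, overlaps that of INHA by 910 bases. OBSL1 was at 40.5 to 66.5 CPM in banded pigs and 67.0 to 86.5 CPM in controls, every banded pig below every control (log2 fold change -0.57 ± 0.17 SE, adjusted p = 0.0620). INHBC, INHBE, NODAL, GDF3 and BMP10 had 0 counts in all 8 libraries, which allows up to 0.0842 to 0.104 CPM per library (3 counts of the TMM-scaled total, counting error only); the INHBE model shares exon bases with GLI1 on its strand, where such reads may not be counted.

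Proteases that process the precursors of these ligands went both ways. BMP1, which cleaves the latent myostatin propeptide, was at 68.5, 74.4, 66.0 and 57.5 CPM in banded pigs and at 37.6, 33.8, 39.6 and 38.1 CPM in controls (log2 fold change 0.84 ± 0.12 SE, edgeR adjusted p = 0.00266). PCSK6, a proprotein convertase, was at 63.2, 70.7, 62.6 and 67.8 CPM in banded pigs and at 104, 95.4, 115 and 122 CPM in controls (-0.72 ± 0.12, adjusted p = 0.00652). Both groups were tight and separate for these 2 genes, and both calls held with every library left out in turn. PCSK5, another convertase, also did not overlap (8.24 to 12.6 CPM in banded pigs, against 5.83 to 7.19 CPM in controls) but had an adjusted p of 0.0571. FURIN, the best-known convertase of the family, was at 48.7 ± 17.0 CPM in banded pigs and 50.8 ± 6.26 CPM in controls (SD, n = 4 each, adjusted p = 0.891).

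Among the other secreted binders LTBP3, a latent TGF-beta binding protein, was the 1 gene called of 5 (66.3, 100, 67.1 and 67.5 CPM in banded pigs, against 45.1, 48.0, 55.5 and 40.2 CPM in controls, log2 fold change 0.67 ± 0.16 SE, adjusted p = 0.0327). Its call ended without banded 2 (adjusted p = 0.0576), without each control in turn (0.0524 to 0.101), and when scaled by library size alone (0.145). DCN, decorin, a myostatin-binding proteoglycan and the most abundant of them per length, was at 919 ± 106.1 CPM in banded pigs and 1042 ± 258 CPM in controls (SD, n = 4 each, adjusted p = 0.599). WFIKKN2, a secreted binder of myostatin and GDF11, was at 26.3 ± 7.39 CPM in banded pigs and 41.2 ± 17.1 CPM in controls (adjusted p = 0.222).

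Downstream of the receptors, 0 of 11 SMAD transducers and brakes were called by edgeR, by DESeq2 or by limma-voom, with 1, the co-repressor SKI, at an unadjusted p under 0.05 in edgeR (19.0 ± 4.28 CPM in banded pigs and 26.0 ± 2.28 CPM in controls, SD, n = 4 each, adjusted p = 0.123). SMAD4, the shared partner of the receptor-activated SMADs and the most abundant of them per length, was at 34.5 ± 5.85 CPM in banded pigs and 33.9 ± 2.53 CPM in controls (SD, n = 4 each, log2 fold change 0.03 ± 0.14 SE, adjusted p = 0.936), a difference whose sign turned with limma-voom, with library size alone and without banded 3, banded 4 or control 1. Its gene model shares exon bases with ELAC1 on the same strand. The other type I receptors (0 of 2 called by edgeR, DESeq2 or limma-voom, 0 at an unadjusted p under 0.05) included ACVR1, at 22.7 ± 6.54 CPM in banded pigs and 26.4 ± 0.761 CPM in controls. Of the coreceptors and decoys 0 of 3 were called by any of the 3 tools, with 0 at an unadjusted p under 0.05. TGFBR3, the inhibin coreceptor betaglycan, was at 38.5 ± 8.65 CPM in banded pigs and 47.4 ± 2.77 CPM in controls (adjusted p = 0.266, and 0.0483 without banded 3). As edgeR called 6.97% of all tested genes, 0 calls in each list of this paragraph is near that share. Of the 13697 tested genes DESeq2 called 1710, limma-voom called 1350, and 3262 had an unadjusted p under 0.05 in edgeR. The counts in these short lists do not show that the genes were unchanged.

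Genes known to be induced by SMAD signalling were the role with the most calls, 3 higher of 5, against 3.47% of all tested genes higher. None of them is specific to this ligand family. The list was drawn up with earlier results of these data known, so nothing is read from this count. LTBP2, a matrix protein of elastic fibres, was at 76.6, 73.0, 71.8 and 85.9 CPM in banded pigs and at 14.1, 22.0, 26.9 and 12.9 CPM in controls, widely separated (log2 fold change 2.02 ± 0.22 SE, edgeR adjusted p = 0.000669). PMEPA1, a feedback inhibitor of SMAD signalling, was at 29.1, 37.0, 49.8 and 43.2 CPM in banded pigs and at 21.2, 19.5, 24.0 and 17.5 CPM in controls (0.95 ± 0.17, adjusted p = 0.00943). CDKN1A, an inhibitor of the cell cycle, was at 98.0 ± 18.5 CPM in banded pigs and 50.6 ± 12.1 CPM in controls (SD, n = 4 each, adjusted p = 0.0158, and 0.0564 without control 3). CCN2, a matricellular protein and the most abundant of this role per length, was not called (log2 fold change 1.95 ± 0.72 SE, edgeR adjusted p = 0.157). It was at 52.9, 101, 607 and 273 CPM in banded pigs and at 69.1, 57.9, 78.0 and 61.8 CPM in controls, so that banded 1 lay below every control and banded 3 was highest. Its log2 fold change was 1.09 without banded 3 (adjusted p = 0.275), and it passed without banded 1 (adjusted p = 0.0476) and in DESeq2 (0.0465). Among the smooth muscle markers CNN1 was also highest in banded 3, at 1348 CPM. The other banded pigs were at 156 to 349 CPM, still above every control (61.7 to 116 CPM), but CNN1 was not called (edgeR adjusted p = 0.0639). TAGLN (460 CPM, against 174 to 287 CPM in controls) and ACTA2 (136 CPM, against 101 to 158 CPM) were highest of the banded pigs in banded 3 as well. MYH11 (40.8 CPM, against 68.4 to 194 CPM in controls) and RGS5 (216 CPM, against 283 to 355 CPM) were lowest there. The RGS5 gene model shares exon bases with 1 other on its strand, where reads may not be counted. The median log2 fold change of the 6 smooth muscle markers was -0.45, and their part in these values was not tested.

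Markers of the tissue's cells were read in the same libraries. Cardiomyocyte markers dominated, with a sum over 6 genes of 28650 to 36363 CPM in banded pigs and 19238 to 25211 CPM in controls and with MYL2 the 1 called gene. The 6 genes did not go one way: 3 had positive log2 fold changes (MYL2, ACTN2 and TNNT2), MYBPC3 (-0.33), RYR2 (-0.74) and TNNI3 (-1.25) had negative ones that were not called, and the median was -0.03. TNNI3 was at 2.44 to 11.3 CPM in banded pigs and 12.6 to 20.6 CPM in controls, but its gene model shares exon bases with 3 others on its strand (DNAAF3, PTPRH and SYT5), where reads may not be counted, so this level is uncertain. Macrophage markers summed to 540 to 1020 CPM in banded pigs and 332 to 538 CPM in controls. Of the 6 genes edgeR called 0 (4 at an unadjusted p under 0.05), DESeq2 called 3 and limma-voom called 2. Of all 13697 tested genes, 3262 had an unadjusted p under 0.05 in edgeR, DESeq2 called 1710 and limma-voom called 1350. All 6 macrophage genes had positive log2 fold changes, with a median of 0.61. The sums overlapped for fibroblasts (7 genes, 3458 to 5926 CPM in banded pigs and 3779 to 5073 CPM in controls, PDGFRA called lower, DCN counted here as well), endothelial cells (6 genes, 885 to 920 CPM in banded pigs and 848 to 974 CPM in controls) and smooth muscle and pericytes (6 genes, 737 to 2240 CPM in banded pigs and 862 to 1179 CPM in controls). Of the 7 fibroblast genes 4 had positive log2 fold changes, none of them called, and the median was 0.13. LUM had the highest of these (0.58, edgeR adjusted p = 0.0839). Adipocyte markers summed over 5 genes to 313 CPM in banded 1, which also had the most FST and MSTN of the banded pigs, to 7.82 to 19.0 CPM in the other banded pigs and to 17.1 to 39.9 CPM in controls. Red cell markers summed over 3 genes to 1781 CPM in banded 4, which had the least FST and MSTN, to 129 to 173 CPM in the other banded pigs and to 74.5 to 321 CPM in controls. The models of PECAM1 and HBB, the most abundant endothelial and red cell markers, share exon bases with others on their strands. Reads may not be counted there, so the endothelial and red cell sums are uncertain. The part of the cell types of this paragraph in the values of the axis was not tested.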

How the data were processed

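Bulk RNA of 8 right ventricles was sequenced. Per the file headers, the authors assigned read pairs to genes with featureCounts 1.6.2, keeping pairs with both ends aligned, a minimum mapping quality of 10 and strand option 2 (reverse), against Ensembl 106 models of Sscrofa11.1. The deposited counts are whole numbers without normalisation. Trimmomatic, HISAT2, Subread and DESeq2 appear in the submitters' processing notes, without roles. The authors' deposited table gives, per gene, a mean normalised signal, control over banded as a log2 value and its standard error, a Wald score, and p-values before and after adjustment; the model behind it and its samples are not stated, and the counting command names 24 libraries, of which 8 are analysed here.

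Here, genes were filtered with filterByExpr (minimum count 10, minimum total 15), scaled by TMM and compared, banded over control, with the robust quasi-likelihood F test of edgeR 4.0.16 in R 4.3.3 (two-sided, Benjamini-Hochberg over 13697 genes, threshold 0.05). The standard error is the size of the log2 fold change over the square root of F. CPM use TMM-scaled library sizes, and FPKM divide CPM by the summed exon length of the gene model. Log2 CPM used a prior count of 2. The fit was tested on simulated counts, but the outcome is not given here and nothing is read from it. Samples were grouped by the treatment label. Numbers within groups follow accession order and pair nothing. Chi-square over degrees of freedom was at least 27.5 for each pair within a group, so no library was a copy of another. No member shares exon bases with another model on its strand.

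The members and all gene lists were chosen with earlier results of these data known. Named genes were all members, every called pathway gene, the most abundant gene per role, and the 5 genes most like FSTL3 and most like MSTN. FURIN, PCSK5, WFIKKN2, SKI, OBSL1, PDGFRA and the other marker genes named singly were added after their values were seen. Alternatives were DESeq2 1.42.0 on the same filtered genes, limma-voom (limma 3.58.1) with quality weights, RLE or library size as the scaling, no filter or a stricter one, no robust estimation, no mitochondrial-genome genes, and each library left out. No sequences of the members were used here, and the result for 1 further pathway gene is not reported here.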

Additional observations from a re-analysis of the deposited data

Results flagged for a closer look

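Outlying animals were looked for in 44 sets of 4 (each member and each named pathway gene, in both groups), by the gap of the most extreme animal to its neighbour as a share of the range, at the 95% limit of Dixon's test, which chance passes in about 1 in 20 sets. LTBP3 stood apart in banded 2 at 100.3 CPM, while the other banded pigs were at 66.3 to 67.5 CPM. No member had such an animal in either group.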

How the results depend on the processing

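The count of 954 genes called was 1710 in DESeq2 and 399 to 962 with 1 library left out, and it was 399, 415 and 409 without control 1, control 2 or control 3. With 1 library left out, 2 to 3 members and 4 to 7 pathway genes were called, the fewest pathway genes without control 3. Scaled by library size alone, all genes had a median of -0.09 on the log2 scale, against 0.02, and 37.4% of the calls were higher in banded pigs, against 49.8%. FSTL3 passed under all 16 alternatives (log2 fold change 2.43 to 2.71). FSTL1 lost its call without control 1 or control 2, and INHBA without control 1. The log2 fold changes that turned sign belonged to genes that were not called: with 1 library left out FST ran from -1.68 to 0.30, GDF11 from -0.027 to 0.22 and SMAD4 from -0.077 to 0.092. With limma-voom ACVR2A was at 0.0026 and SMAD4 at -0.051, and with library size alone SMAD4 was at -0.078; the cause was not tested. MSTN did not pass the filter of 50 counts in 4 libraries. No paired analysis was possible because the labels give no shared numbers or pairs. Counts as low as 2 (FST) and 4 (MSTN) in banded 4 limit the precision of both genes.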
